A study of Mus musculus with 2 samples.

Results

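The complement and acute phase genes described here are 9 of the 31054 genes counted in the series: C3, Cfb, Cfd, C1ra, C1s1, C4b, Serping1, Hp and Lcn2. They were chosen by name, with earlier results of these data known. They were followed in CD31- CD45- cells that had been sorted from gonadal white adipose tissue (gWAT) of 18-month-old male p16-CreERT2/R26-LSL-tdTomato mice given tamoxifen. In these mice Cre is made where the p16 gene is active, and tamoxifen lets it switch on the red reporter tdTomato for good. Cells with the reporter (Tom+) and without it (Tom-) gave 1 droplet library each, and both groups carried the same alleles and treatment. The number of mice behind each library is not given in the sources used here.

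Complement is a set of plasma proteins that mark and attack microbes and damaged cells. In the classical pathway C1q acts with the proteases C1r and C1s, and C1s cuts C4 and C2. The alternative pathway runs through factor B (Cfb) and factor D (Cfd). Both meet at C3, and the C1 inhibitor (Serping1) blocks C1r and C1s. Acute phase proteins such as haptoglobin (Hp), which binds free haemoglobin, and lipocalin 2 (Lcn2), which binds bacterial iron carriers, are made in larger amounts during inflammation. The liver is the main source of many of these proteins, and adipose tissue is a known additional source, with Cfd, also called adipsin, a classical product of mature adipocytes.

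Several of the 9 genes are neighbours in the genome (mm10, GRCm38, GENCODE vM21 annotation). C1ra (chromosome 6, bases 124512405 to 124523443, plus strand) and C1s1 (chromosome 6, bases 124530345 to 124542359, minus strand) lie 6901 bases apart. C4b (chromosome 17, bases 34728380 to 34743882) and Cfb (chromosome 17, bases 34856374 to 34862518) lie on the minus strand of the same stretch of chromosome 17, and Cfb is 85 bases from C2, the classical pathway protease. C3 is on chromosome 17 from 57203970 to 57228136, Cfd on chromosome 10 from 79890853 to 79892655, Serping1 on chromosome 2 from 84765387 to 84775444, Lcn2 on chromosome 2 from 32384633 to 32388252 and Hp on chromosome 8 from 109575128 to 109579172. All 9 are annotated as protein coding. C1ra and C1s1 have near-identical copies, C1rb and C1s2, at 98.0% and 95.9% identity over 2429 and 2661 aligned transcript bases, so reads from stretches that the copies share may have been split or dropped. C1rb was at 0.900 to 4.26 CPM and C1s2 at 1.31 to 3.92 CPM over the 4 groups of cells below (CPM, UMIs per 1000000 UMIs of the group, where a UMI is 1 counted molecule). C4a, the copy of C4b, was not analysed here.

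RefSeq promoters were found for C3, Cfd, C1ra, C1s1 and Lcn2. They were searched because C/EBP factors, STAT factors, interferon regulatory factors and NF-kB are the transcription factors classically tied to acute phase genes. The windows are the 250 bases before the RefSeq start site, written 5′ to 3′ on the gene's strand, with every match to the C/EBP-type motif TTNNGNAA, on either strand, in capitals. The windows are chr17:57228137-57228386 for C3 (minus strand), chr6:124512371-124512620 for C1ra (plus strand), chr6:124542360-124542609 for C1s1 (minus strand) and chr2:32387740-32387989 for Lcn2 (minus strand), all in GRCm38.p6. Those of C1ra and Lcn2 overlap the GENCODE span of the gene, so only the windows of C3 and C1s1 are printed.
C3: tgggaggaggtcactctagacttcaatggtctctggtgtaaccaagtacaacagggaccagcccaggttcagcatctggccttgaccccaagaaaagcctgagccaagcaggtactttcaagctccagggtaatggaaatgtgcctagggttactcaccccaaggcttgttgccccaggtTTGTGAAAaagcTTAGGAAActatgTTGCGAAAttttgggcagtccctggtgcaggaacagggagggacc
C1s1: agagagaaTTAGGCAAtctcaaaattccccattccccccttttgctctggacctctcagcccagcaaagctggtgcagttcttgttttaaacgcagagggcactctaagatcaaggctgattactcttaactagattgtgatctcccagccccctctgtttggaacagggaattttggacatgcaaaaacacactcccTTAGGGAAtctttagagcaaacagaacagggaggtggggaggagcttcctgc
The C3 window held 3 matches close together, with first bases at -70, -58 and -45 from the start site. The C1ra window held matches at -72 and -29, the printed C1s1 window at -242 and -52, and the Lcn2 window at -216. Another RefSeq start site of C1s1 gave the window chr6:124542322-124542571, with a match at -90. It overlaps the GENCODE span of the gene and is not printed. The Cfd window held none. At least 1 match was found in 36.8% of all 32851 promoter windows of this length, so a single match is common. The STAT motif TTCNNNGAA (7.02% of windows), the interferon-type motif GAAANNGAA (7.13%) and the NF-kB consensus (7.25%) were not found in the windows of these 5 genes. A match describes letters only.

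The cells kept had over 1000 but under 7000 detected genes and less than 8% mitochondrial UMIs, 3524 in the Tom+ and 6717 in the Tom- library. They were divided by the summed UMIs of 5 mesothelial genes (Msln, Upk3b, Krt19, Lrrn4 and Upk1b). Cells with at least 10 such UMIs are called mesothelial (250 Tom+ and 1887 Tom- cells) and cells with fewer than 5 stromal (3263 and 4800). Another 11 and 30 cells fell between and were left out. In the stromal class 99.5% and 99.7% of cells held at least 5 UMIs of 7 stromal markers, and the class includes the cells that the study calls adipocyte progenitor cells (APCs). Mesothelial cells all reached that number too, at a lower summed level of these markers (13761 and 15407 CPM, against 29801 and 31188 CPM in stromal cells). Stromal cells held a median of 14235 UMIs in the Tom+ and 11270 in the Tom- library, and mesothelial cells 18601.5 and 14753. tdTomato RNA was higher in the Tom+ library in both classes, at 211 against 13.1 CPM in stromal and 780 against 8.25 CPM in mesothelial cells, in the direction of the sort. Cdkn2a, the gene that encodes p16 and drives Cre, was at 4.66 against 5.79 CPM in stromal and 12.4 against 8.47 CPM in mesothelial cells. By quantitative PCR, a different measure, the study reported p16 RNA to be higher in sorted Tom+ than Tom- APCs of old mice. No direction is read from the low levels here. Immune markers also moved with the library: their summed level in stromal cells was 45701 CPM in Tom+ and 10812 CPM in Tom-, nearly all of it the immunoglobulin gene Igkc (45478 and 10759 CPM). Immunoglobulin genes together made up 6.06% and 1.59% of stromal UMIs although CD45+ cells had been sorted out. The libraries shared 2224 listed barcodes, and such barcodes made up 12.4% of Tom+ and 1.56% of Tom- stromal cells and 40% and 11.0% of mesothelial cells. Only 9 barcodes passed the limits on genes and mitochondrial UMIs in both libraries. The members' ratios between libraries and between classes were recomputed without the immunoglobulin-rich cells (over 5% of UMIs) and without the shared barcodes. Values by gene score or by tdTomato UMI, and correlations, were not. With 1 library per condition there is no test and no replicate spread, and a difference between sorted groups cannot be told apart from one between preparations. Intervals are exact, at 95%, and speak to counting error alone.

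C3, the protein on which all complement pathways converge, was at 4485 CPM (4467 to 4503) in Tom+ stromal, 5071 (5053 to 5090) in Tom- stromal, 6154 (6087 to 6221) in Tom+ mesothelial and 5681 CPM (5655 to 5707) in Tom- mesothelial cells. It was abundant in every group, and a C3 UMI was found in at least 98.5% of cells of each class in each library. Serping1 was likewise found throughout, at 2186 CPM in Tom+ stromal, 3390 in Tom- stromal, 2234 in Tom+ mesothelial and 2558 CPM in Tom- mesothelial cells. Its highest level was that of Tom- stromal cells.

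Among the genes of the classical pathway, C1ra was at 410 CPM in Tom+ stromal, 649 in Tom- stromal, 976 in Tom+ mesothelial and 1176 CPM in Tom- mesothelial cells. It was higher in both mesothelial groups than in both stromal groups. C1s1, its partner protease, was nearly level, at 825, 979, 969 and 1045 CPM in the same order of groups. C4b, the precursor cut by C1s, had the opposite pattern to C1ra, at 620 and 771 CPM in Tom+ and Tom- stromal cells and 284 and 303 CPM in Tom+ and Tom- mesothelial cells.

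Cfb, the protease of the alternative pathway, was a gene of mesothelial cells first, with 427 CPM (interval 409 to 445) in the Tom+ library's mesothelial cells and 411 CPM (404 to 418) in those of Tom-. Its stromal levels were 60.3 (58.2 to 62.4) and 103 CPM (101 to 106). Cfd, which activates Cfb, was almost absent. It had 7 UMIs in Tom+ stromal cells (0.137 CPM), 456 in Tom- stromal cells (7.88 CPM), 32 in Tom- mesothelial cells (0.989 CPM) and 0 in Tom+ mesothelial cells, which allows up to 0.564 CPM (3 counts). Of the 456 UMIs, 416 (91.2%) came from 2 cells with 273 and 143 Cfd UMIs. These cells held 47 and 36 UMIs of Adipoq and 15 and 10 of Plin1, both genes of mature adipocytes, and 0 UMIs of the progenitor receptor Pdgfra. Without them, Cfd in Tom- stromal cells was at 0.691 CPM (0.494 to 0.942). Cfd was below the limit of a mean of 5 CPM in all comparisons.

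Of the acute phase genes, Hp was a stromal gene, at 279 (274 to 283) and 619 CPM (612 to 625) in Tom+ and Tom- stromal cells, against 28.9 (24.5 to 33.9) and 57.0 CPM (54.4 to 59.6) in Tom+ and Tom- mesothelial cells. Lcn2 was at 38.5 CPM (36.8 to 40.2) in Tom+ stromal, 111 (108 to 114) in Tom- stromal, 182 (171 to 194) in Tom+ mesothelial and 197 CPM (193 to 202) in Tom- mesothelial cells. The lowest of its 4 levels was that of Tom+ stromal cells.

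**Figure D1:**
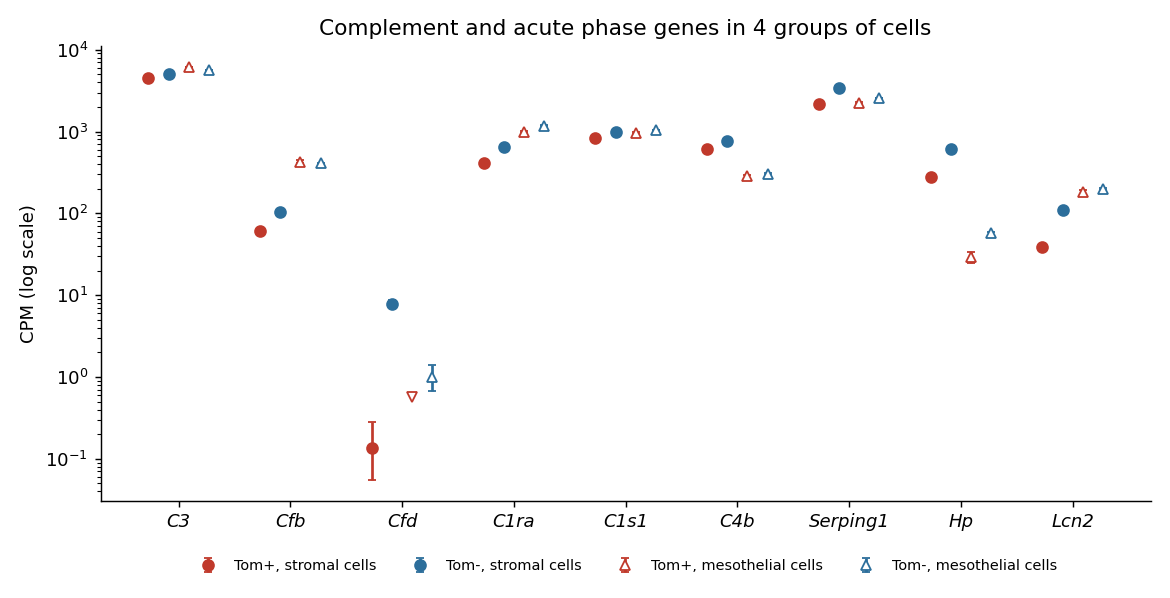
CPM (log axis) of each of the 9 genes in Tom+ (red) and Tom- (blue) stromal (filled circles) and mesothelial (open triangles) cells, each point 1 library and class, with exact 95% Poisson intervals that are mostly smaller than the symbols. Cfb and C1ra are higher in mesothelial cells, C4b and Hp in stromal cells, and Cfd lies under 10 everywhere; the open triangle pointing down is its limit of 0.564 at 0 UMIs.

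In stromal cells, all 8 genes that passed the limit of a mean of 5 CPM were lower in the Tom+ than in the Tom- library. Set over Tom-, their Tom+ levels had a median log2 ratio of -0.65, against 0.07 over all 9778 genes that passed. Lcn2 had the lowest ratio, -1.53 (-1.60 to -1.45), followed by Hp at -1.15 (-1.18 to -1.12). Cfb was at -0.78 (-0.84 to -0.72), C1ra at -0.66 and Serping1 at -0.63, while C4b (-0.31), C1s1 (-0.25) and C3 (-0.18) were closer to 0. Of the 8, 5 were past a log2 ratio of 0.35 downward and 0 upward. Among all genes 8.16% were past it downward and 14.8% upward. Scaled by median-of-ratios size factors, these shares were 11.1% and 9.96%, and C4b was the 6th member past the fold, at -0.38. The genes were chosen with earlier results of these data known, so setting their count beside these shares is no test. In percentiles of all genes, Lcn2 stood at 0.205, Hp at 0.593, Cfb at 1.72, C1ra at 2.46 and Serping1 at 2.82. C4b stood at 9.53, C1s1 at 13.2 and C3 at 18.1. Depth per cell, immunoglobulin RNA and the inflammatory score described below also differed between the libraries, and their part in the ratios was not tested. The 8 signs and these 5 calls held without the immunoglobulin-rich cells and without shared barcodes. Over the 11 alternatives Lcn2 ran from -1.96, without shared barcodes, to -1.19, without cells of over 2 times the median UMIs.

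In mesothelial cells the difference was small for most of the genes. The median log2 ratio of the 8 was -0.11, against 0.03 over all 10014 genes. Hp alone was past 0.35, at -0.98 (-1.22 to -0.74), from 154 Tom+ UMIs, at percentile 0.340. Over the 11 alternatives Hp ran from -1.13 to -0.54, a wider range than its counting interval. Upward there were 0, against 7.34% of all genes upward and 4.27% downward. Lcn2, with the lowest ratio in stromal cells, was at -0.12 (-0.21 to -0.02) here, and Cfb at 0.06 (-0.01 to 0.12). C1ra was at -0.27, Serping1 at -0.20, C1s1 at -0.11, C4b at -0.09 and C3 at 0.12. The gap between the classes was widest for Lcn2, whose stromal ratio was lower by 1.41 than its mesothelial one, and for Cfb, lower by 0.83. In the main setting it was narrowest for C1s1, at 0.14, and Hp, at 0.17. With every cell thinned to 5000 UMIs, Hp was at -1.08 in stromal and -0.54 in mesothelial cells, further apart. Mesothelial Hp also has the limit from free RNA given below, so its narrow gap is not read. These gaps were not tested. Without the shared barcodes, which took 40% of the Tom+ mesothelial cells, C4b was at -0.54 and Lcn2 at -0.45, so 3 genes were past the fold, while the share of all genes past it downward rose to 9.65%.

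**Figure D2:**
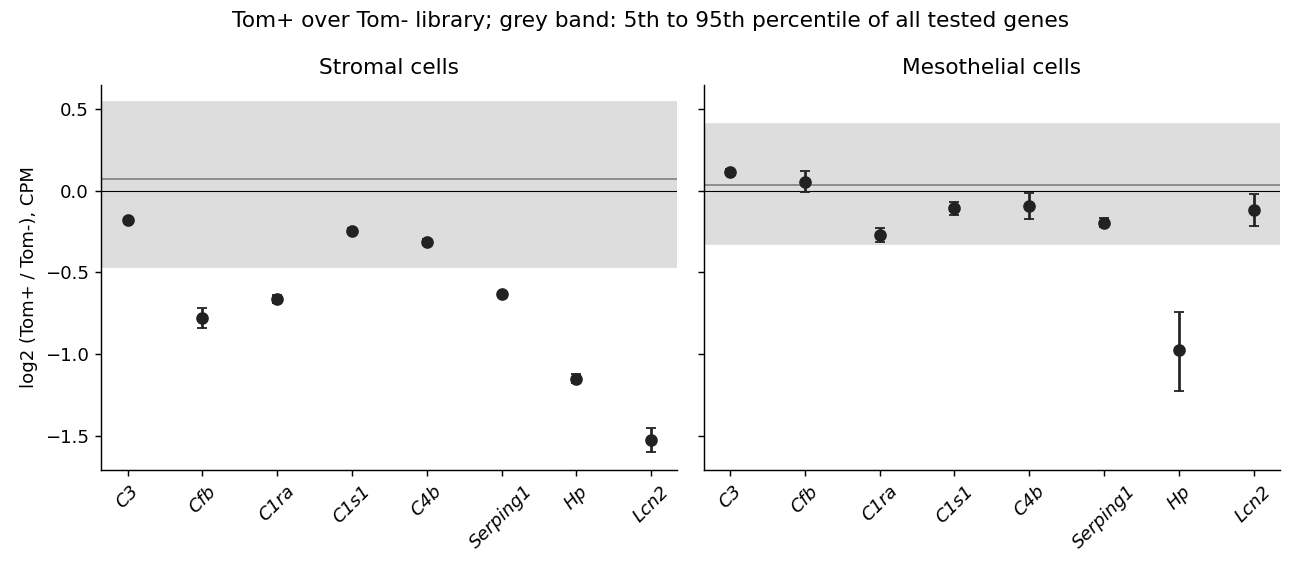
log2 ratio of Tom+ over Tom- (CPM) for the 8 genes past the limit, in stromal (left) and mesothelial (right) cells, with exact 95% counting intervals; the grey band holds the 5th to 95th percentile of all tested genes and the grey line their median. In stromal cells Lcn2, Hp, Cfb, C1ra and Serping1 lie under the band, which starts at -0.46, and in mesothelial cells Hp does, below -0.33.

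Between the classes of cells, the genes divided. In the Tom- library Cfb was higher in mesothelial than in stromal cells by a log2 ratio of 1.99 (1.94 to 2.03), the only one past 1 upward. Hp, at -3.44 (-3.51 to -3.37), and C4b, at -1.35 (-1.38 to -1.32), were past it downward. Among all 10019 genes 11.9% were past 1 upward and 9.22% downward. In the Tom+ library Cfb (2.82), Lcn2 (2.24) and C1ra (1.25) were past 1 upward and Hp (-3.27) and C4b (-1.13) downward, against 13.1% and 10.1% of 10240 genes. C1ra (0.86) and Lcn2 (0.83) had the same direction in the Tom- library without reaching 1. Lcn2 did reach it under 3 of 11 alternatives, at 1.30 with each cell weighted equally, 1.21 with cells thinned to 5000 UMIs and 1.29 without cells of over 2 times the median UMIs. C3 was slightly higher in mesothelial cells in both libraries, by 0.16 and 0.46. Serping1 was lower by 0.41 in the Tom- library and at 0.03 in the Tom+ library, where 7 of 11 alternatives put it below 0. Both libraries gave Cfb, Hp and C4b the same call under all 11 alternatives.

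As a measure of free RNA, genes typical of either class were read in the other. RNA of 5 keratin and other mesothelial genes that were not used to choose the cells (Krt8, Krt18, Krt7, Gpm6a and Bnc1) was found in stromal cells at 0.144% to 0.460% of its mesothelial level in the Tom+ and 0.545% to 1.26% in the Tom- library. Stromal Cfb stood at 14.1% and 25.2% of its mesothelial level and stromal Lcn2 at 21.1% and 56.1%, well above that range. In the other direction, mesothelial Hp stood at 10.4% (Tom+) and 9.21% (Tom-) of its stromal level. The stromal genes Pdgfra (12.2% and 18.2%), Lum (3.87% and 8.83%) and Pi16 (15.9% and 6.97%) stood near it, while the collagen gene Col3a1 (40.7% and 66.1%) and Dcn (54.0% and 50.8%), a stromal matrix gene, stood higher. The Hp counts of mesothelial cells therefore cannot be told apart from RNA of stromal cells, and its Tom+ against Tom- ratio there is to be read with that limit. Mesothelial C4b, at 45.8% and 39.2%, stood above Pdgfra, Lum and Pi16 and below Dcn in both libraries. How much of it was RNA of stromal cells was not tested, so its ratio there is read with the same limit.

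The genes also differed in how their UMIs were spread over stromal cells. C3, Serping1, C1ra and C1s1 were found in nearly all cells, and the 10% of cells with the most UMIs held 21.7% to 26.9% of them. Lcn2 was concentrated in a few cells, the top 10% holding 96.7% of its UMIs in Tom+ and 92.2% in Tom-. Cells with at least 5 Lcn2 UMIs numbered 85 of 3263 in Tom+ (2.60%) and 223 of 4800 in Tom- (4.65%), and held 75.7% and 81.1% of all Lcn2 UMIs. Hp was intermediate, at 77.6% and 68.3% in the top 10%, and reached 408 and 614 UMIs in single cells. Cfb (52.6% and 53.0%) and C4b (39.2% and 43.9%) came next.

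With every cell thinned to 5000 UMIs, which left out 119 Tom+ and 253 Tom- stromal cells, an Lcn2 UMI was found in 6.87% (6.01 to 7.81) of Tom+ and 13.0% (12.1 to 14.0) of Tom- stromal cells. The unthinned shares were 12.0% and 20.2%. For Hp the thinned shares were 31.7% (30.1 to 33.3) and 52.3% (50.8 to 53.8), against 46.0% and 64.8% unthinned. For Cfb they were 20.7% (19.3 to 22.1) and 30.5% (29.1 to 31.8), against 43.6% and 48.9%, and for C1ra 81.7% (80.3 to 83.0) and 92.6% (91.8 to 93.3), against 93.5% and 96.6%. C4b was the exception, with 72.5% (70.9 to 74.0) in Tom+ and 68.7% (67.3 to 70.1) in Tom-, the opposite order to its level over all cells, so no order is read from its shares. As a class that should lack these genes, cells with over 20% immunoglobulin UMIs (125 Tom+ and 41 Tom-, at median depths of 40741 and 42742 UMIs before thinning, against 14235 and 11457 in the other stromal cells) held an Lcn2 UMI in 9.6% (5.06 to 16.2) and 17.1% (7.15 to 32.1), not below the stromal share. The same cells held a UMI of Hp in 26.4% and 36.6%, of Cfb in 11.2% and 24.4%, of C1ra in 36.8% and 48.8% and of C4b in 39.2% and 63.4%. The intervals of Hp (18.9 to 35.0 in Tom+ and 22.1 to 53.1 in Tom-) held the stromal share. So did those of Cfb (12.4 to 40.3) and C4b (46.9 to 77.9) in Tom-. They also held Dcn in 74.4% and 95.1%, so they were not free of stromal RNA. Shares of cells with a single UMI of Lcn2, Hp, Cfb or C4b are therefore not read as expression. For Lcn2 the counts of cells with at least 5, given above, are the ones to compare. They are unthinned and were not read in the immunoglobulin-rich cells. The limits of 5% and 20% immunoglobulin and of 5 UMIs were chosen after values had been seen.

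**Figure D3:**
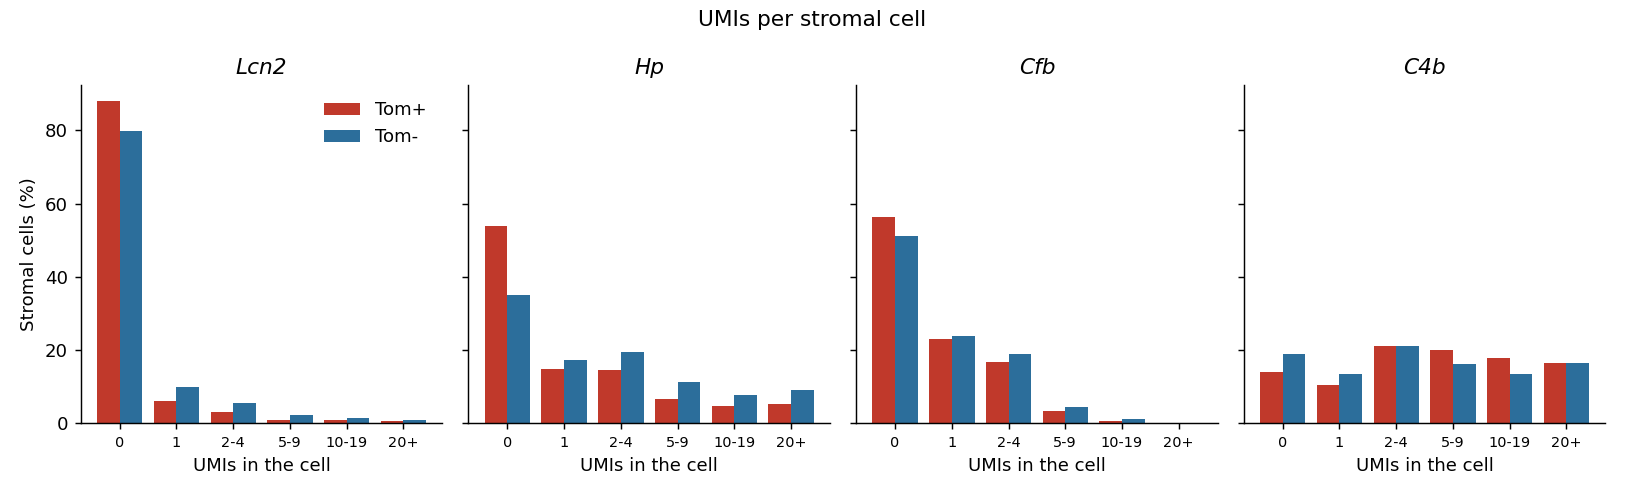
Share of stromal cells (%) by number of UMIs of Lcn2, Hp, Cfb and C4b in the cell, Tom+ in red and Tom- in blue, unthinned, 1 library each. Lcn2 is at 0 UMIs in 88.0% of Tom+ and 79.8% of Tom- cells and Hp in 54.0% and 35.2%, while C4b is spread over all bins.

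To see which stromal cells carried the genes, cells thinned to 5000 UMIs were scored for 5 gene programmes that hold none of the 9 genes, and the top and bottom groups of cells, from limits at the 25th and 75th percentile of the score over both libraries, were compared within each library. Ties in the counts made some groups larger than planned. The interstitial progenitor groups held 34.4% and 36.8% (bottom) and 33.1% and 31.0% (top) of Tom+ and Tom- cells, and 6175 of all 7691 cells lay within 1 UMI of a limit. With the inflammatory score (Cxcl1, Ccl2, Ccl7, Il6, Nfkbia and Icam1), all 8 genes were higher in the top group in both libraries, against 34.7% of all genes in Tom+ and 26.4% in Tom-. Lcn2 went from 21.9 to 68.2 CPM in Tom+ cells, a log2 ratio of 1.64 (1.29 to 1.99), and from 42.7 to 128 CPM in Tom- cells, 1.59 (1.36 to 1.82). Hp was at 1.44 and 0.75, Cfb at 1.04 and 1.33, and C4b at 0.69 and 1.53. C1s1 (0.15 and 0.29) was the least different. The score itself was distributed unequally between libraries, with 13.8% of Tom+ and 32.9% of Tom- cells in the top group and 37.7% and 18.6% in the bottom one. Within those groups Lcn2 was lower in Tom+ by a log2 ratio of 0.91 in the top and 0.96 in the bottom group. Each group spans a range of scores, so the score was not matched between the libraries there. Immunoglobulin-rich cells were kept in the groups of all 5 scores, and their part in these differences was not tested.

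With the dissociation score (Fos, Jun, Egr1, Atf3, Hspa1a, Hspa1b and Dusp1, early-response and heat-shock genes), Lcn2, Hp, Cfb and C4b were lower in the top group in both libraries. Of the 8 genes, 4 in Tom+ and 0 in Tom- were higher in the top group. The share of all genes was not computed for this score, so these counts are not read. Lcn2 was lower in the top group by a log2 ratio of 2.01 in Tom+ and 1.98 in Tom- cells, and Hp by 1.12 and 0.63. Cfb was at -0.37 (-0.66 to -0.08) and -0.86 (-1.03 to -0.69). C4b was at -0.12 and -1.25, and C3 at 0.17 and -0.40, values that were unlike in the 2 libraries. Along the interstitial progenitor score (Dpp4, Pi16, Sema3c, Anxa3 and Wnt2), C4b was lower in the top group, at -1.01 and -0.55, as were Lcn2 (-1.23 and -0.79) and Cfb (-0.54 and -0.55), while C1s1 was higher (0.43 and 0.27). Along the adipogenic score (Pparg, Cebpa, Lpl, Cd36 and Fabp4) the top group was the higher one for 4 of the 8 genes among Tom+ cells (67% of all genes) and for 1 among Tom- cells (61.9%). Of those 4, C1ra, C4b and Cfb had intervals on both sides of 0. The interferon score had 75.7% and 70.6% of cells at 0 UMIs, which formed its bottom group, and showed small differences.

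Between libraries, Cfb, C1ra, C1s1, Serping1, Hp and Lcn2 were lower in Tom+ in 10 of 10 groups, as were 11.7% of all 9778 genes, with Lcn2 between -1.55 and -0.91 and Hp between -1.53 and -0.61. The intervals of C1s1 lay on both sides of 0 in the top adipogenic (-0.02, -0.09 to 0.04) and top dissociation group (-0.05, -0.11 to 0.02). C3 was lower in 8 and C4b in 7 of the 10. In the bottom inflammatory group C4b was higher in Tom+ by 0.42 (0.34 to 0.51), and in the top dissociation group by 0.49 (0.41 to 0.57). The groups share cells across scores, so these are not 10 independent comparisons.

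**Figure D4:**
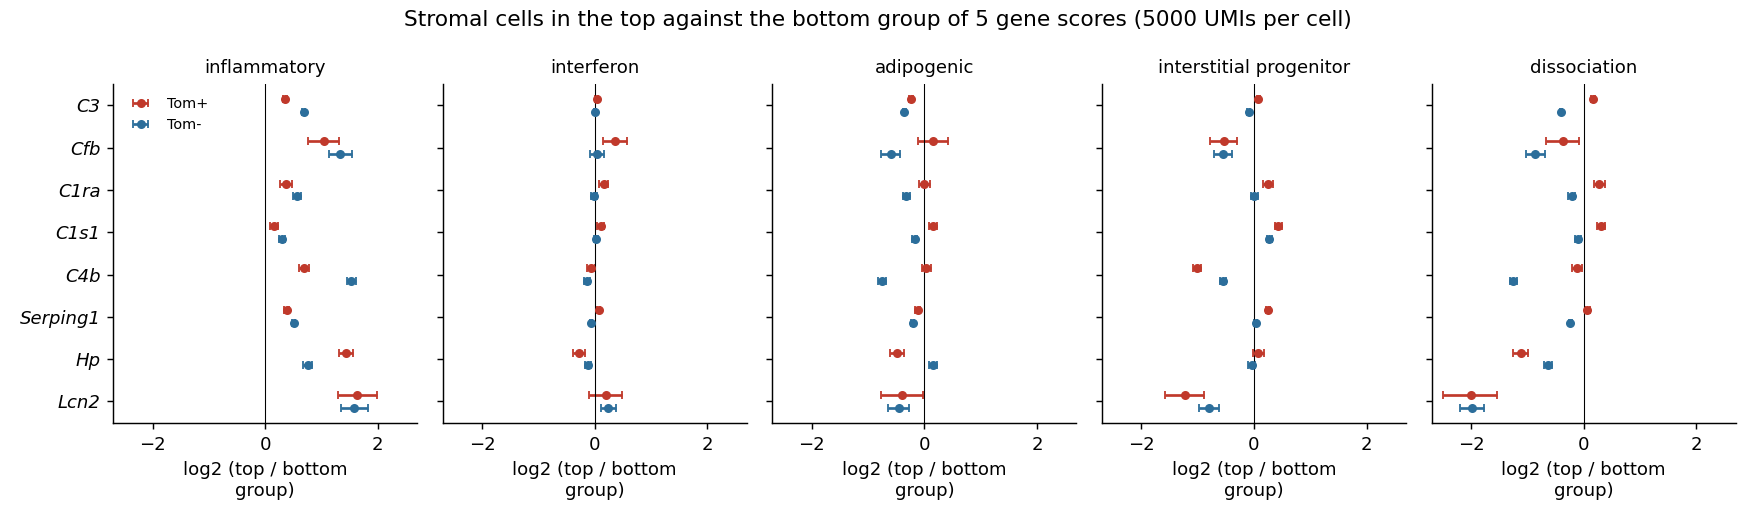
log2 ratio of the top over the bottom group of 5 gene scores in stromal cells at 5000 UMIs each, for 8 genes, Tom+ in red and Tom- in blue, with exact 95% counting intervals. With the inflammatory score all points lie right of 0, and with the dissociation score Lcn2, Hp, Cfb and C4b lie left of 0 in both libraries.

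Within the Tom+ library, stromal cells with a tdTomato UMI (547) and without one (2597) were compared at 5000 UMIs. Absence of a UMI does not show absence of the reporter at this depth. C4b (-0.38), C3 (-0.35), C1s1 (-0.31), Serping1 (-0.25), C1ra (-0.20) and Hp (-0.15) were lower in cells with a tdTomato UMI. Lcn2, at 0.10 (-0.24 to 0.43), and Cfb, at 0.04 (-0.21 to 0.29), had intervals on both sides of 0. The order of the genes was thus unlike that between the libraries, where Lcn2 had the lowest ratio. In Tom+ mesothelial cells (161 with and 89 without), Lcn2 was at -0.67 (-1.08 to -0.25), Cfb at 0.27 (0.01 to 0.54), C4b at -0.34 (-0.66 to -0.01) and C3 at -0.05 (-0.11 to 0.02). C1ra was at 0.18 (0.01 to 0.36), Serping1 at 0.14 (0.03 to 0.26) and C1s1 at 0.11 (-0.06 to 0.29). Hp was at 1.73 (0.47 to 3.27), but rested on 36 and 6 UMIs. Hp, C1ra, Serping1, C1s1 and C3 were thus opposite in sign to their mesothelial ratios between the libraries. For C1s1 and C3 the intervals here lay on both sides of 0.

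The genes whose UMIs followed each member most closely over single stromal cells were found among 2844 genes, as the Pearson correlation in 3144 Tom+ and 4547 Tom- cells at 5000 UMIs, by the lower of the 2 values. Cells share library, depth and preparation, so these are descriptions. C3 followed Serping1 (0.63 in Tom+ and 0.53 in Tom-), C4b (0.38 and 0.48) and the matrix protein gene Aebp1 (0.50 and 0.37). Serping1 and C3 were also the closest genes of C1ra (0.39 and 0.40, and 0.36 and 0.38) and of C1s1 (0.39 and 0.29, and 0.34 and 0.28). C4b followed Apoe (0.47 and 0.50), the apolipoprotein, and Gas6 (0.40 and 0.39), a ligand of receptor kinases that clear dying cells. Lcn2 followed Saa3 (0.37 and 0.32), an acute phase apolipoprotein, and Serpina3n (0.27 and 0.32), a protease inhibitor. Hp followed Col6a5 (0.22 and 0.24) and Lcn2 (0.22 and 0.23), and Cfb followed C3 (0.22 and 0.29), C4b and Serpina3n, all weakly. For Cfd no gene could reach 0.2, since the thinned Tom+ stromal cells held 0 Cfd UMIs, so nothing is read from this.

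Other genes of the pathways were read from lists of their known members. These lists too were chosen with earlier results known, so shares of all genes are given beside their counts as description only. Of the other acute phase genes, 8 of 24 passed the limit in stromal cells and 6 were past 0.35 downward in Tom+, 0 upward, against 8.16% and 14.8% of all genes. They were Slpi, an antiprotease, at -1.27 (36.1 against 87.0 CPM), Ptx3, a pentraxin, at -0.96 (282 against 549 CPM), Serpina3n at -0.70, Saa3 at -0.67, Lbp, which binds bacterial lipopolysaccharide, at -0.63, and the metalloreductase Steap4 at -0.58. The median of the 8 was -0.65. Stromal Slpi stood at 0.482% (Tom+) and 1.20% (Tom-) of its mesothelial level, beside highest values of 0.460% and 1.26% for the 5 mesothelial genes, so its ratio cannot be told apart from background. Of the complement regulators, 5 of 13 passed and 3 were downward: Clu (-1.85, 29.1 against 105 CPM), Vtn (-1.18) and Csmd1. C2 was at -0.59 and C7, of the terminal pathway, at -0.74. The 3 C1q chains went the other way, C1qa at 2.71 (31.4 against 4.80 CPM). Their UMIs came mostly from few cells: 23 Tom+ and 8 Tom- stromal cells with at least 5 held 95.7% and 89.0% of them, and also held 6293 and 837 UMIs of Lyz2, a macrophage gene. In Tom+ mesothelial cells C1qa was at 128 CPM against 5.29 in Tom-, and 15 of the 250 cells held 98.8% of the C1q UMIs. Of the receptors, 0 of 8 passed in stromal cells.

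Of 16 upstream receptors and transcription factors, all passed, 6 were downward in Tom+ stromal cells and 0 upward, against the same 8.16% and 14.8% of all genes: Cebpb at -0.88 (1644 against 3019 CPM), the cytokine-signalling inhibitor Socs3 at -0.85, Tnfrsf1a at -0.48, Cebpd at -0.45, Il1r1 at -0.43 and Ifngr1 at -0.37. Cebpa was at -0.20 and Il6ra at 0.06. In mesothelial cells, Socs3 (-0.37) and Cebpb (-0.36) were downward and Il6ra (0.38) and Cebpa (0.37, from levels under 10 CPM) upward. These were 2 genes each way, against 4.27% downward and 7.34% upward of all genes. Of the other acute phase genes 7 passed there. Ptx3 (-1.68), Serpina3n (-0.50) and Lbp (-0.49) were downward and 0 upward, against the same shares, while Slpi (0.05) and Saa3 (0.01) were near 0. Mesothelial Ptx3 stood at 4.06% (Tom+) and 6.68% (Tom-) of its stromal level, near Lum, and Serpina3n at 17.3% and 15.0%, near Pdgfra and Pi16. Their ratios there cannot be told apart from RNA of stromal cells. Lbp stood higher, at 28.1% and 25.5%, and how much of it was such RNA was not tested.

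Mesothelial and stromal cells also differed in the other genes given here, which had the same direction in both libraries. The C1q chains are left out of this, because C1qb and C1qc averaged under 5 CPM in the Tom- library. In the Tom+ library C1qb was at 1.66 and C1qc at 2.10, with most C1q UMIs in the few cells described above. In the Tom- library Slpi was at 7225 against 87.0 CPM (log2 ratio 6.38), Clu at 2068 against 105 CPM (4.30), Saa3 at 1779 against 177 CPM (3.33) and C2 at 959 against 161 CPM (2.57). Ptx3 (-3.90), Vtn (-3.83), Cebpa (-2.96), C7 (-2.94), Serpina3n (-2.74), Lbp (-1.97), Cebpd (-1.94), Socs3 (-1.77), Il1r1 (-1.63) and Steap4 (-1.24) were lower in mesothelial cells. Cfb and C2, the neighbours on chromosome 17, both had higher levels in mesothelial cells, while C4b, in the same region, was lower.

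**Figure D5:**
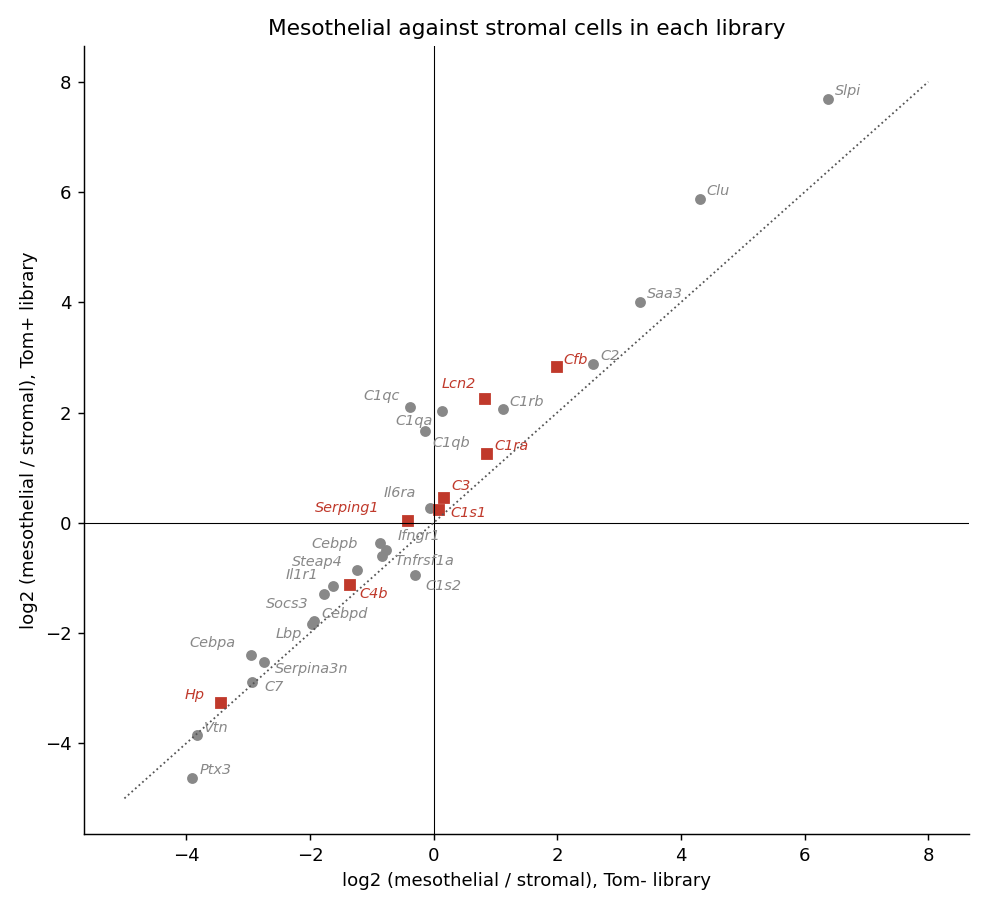
log2 ratio of mesothelial over stromal cells (CPM) in the Tom- (horizontal) and Tom+ (vertical) library, for 8 of the 9 genes (red squares) and the other named pathway genes (grey circles); the dotted line marks equal ratios. Cfb, at 1.99 and 2.82, lies with C2 and Saa3 at the upper right, and Hp, at -3.44 and -3.27, with C7, Vtn and Ptx3 at the lower left. C1qb and C1qc in the Tom- library, and C1rb and C1s2 in both, averaged under 5 CPM and are drawn without being read.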

How the data were processed

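The authors counted UMIs per gene and barcode with Cell Ranger 3.0.2 on mm10, from 10x Genomics 3′ libraries, and deposited them as raw counts, 1 matrix per library (61119807 Tom+ and 96872394 Tom- UMIs over 5566 and 11838 barcodes). UMIs of the kept cells were summed per library and class and scaled to CPM with Python 3.11.15, numpy 2.4.6 and scipy 1.17.1. With 1 library per condition no test was run. Exact 95% Poisson and Clopper-Pearson intervals cover counting error, and the script was tested on simulated data. Ratios of genes averaging under 5 CPM were not read or counted in the background, and calls used a log2 ratio of 0.35 (libraries) or 1 (classes). No doublet caller was run. Genes of the pathway lists were named when they averaged 20 CPM or more over the 4 groups with a ratio of at least 0.35 between libraries, or as copies of a member. Csmd1, named to complete a count, falls outside this rule. 1 gene of the lists is not reported here and was left out of their counts. The members and lists were chosen with earlier results of these data known. Promoters are from RefSeq (GRCm38.p6).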

Additional observations from a re-analysis of the deposited data

Results flagged for a closer look

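C3 had opposite signs in the 2 classes of cells. The log2 ratio of Tom+ over Tom- was -0.18 in stromal cells (229207 against 293547 UMIs) and 0.12 in mesothelial cells (32757 against 183821 UMIs). The difference between the classes was not tested, since each comparison rests on 1 library per condition. Without the barcodes listed in both libraries the ratios were -0.07 and 0.003.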

How the results depend on the processing

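No paired analysis was possible because each condition is 1 library. The members' ratios between libraries and between classes were recomputed under 11 alternatives. These changed scaling, weight of each cell, thinning, mitochondrial and class limits, doublets, shared barcodes, denominators and low values. One of them, leaving out immunoglobulin-rich cells, was chosen after seeing the data. No called ratio changed sign, and the counts of members past the fold stayed within 1.5 times the main count with 1 exception. Without barcodes listed in both libraries, mesothelial members past the fold went from 1 to 3. In stromal cells Lcn2 ran from -1.96 to -1.19, Hp from -1.22 to -1.01 and Cfb from -0.85 to -0.71. With cells thinned to 7500 UMIs, the number of the 8 genes higher in the top group in the Tom- library went from 3 to 1 for the interstitial progenitor score and from 4 to 7 for the interferon score. For the adipogenic score in the Tom+ library it went from 4 to 3, and C1ra, Cfb and Lcn2 changed sign there. The number higher in Tom+ stromal cells with a tdTomato UMI went from 2 to 0. Shares of all genes were not computed at 7500 UMIs or for the tdTomato comparison. These counts are therefore not read as results about the genes. The causes were not tested. Genes under about 10 CPM, Cfd first, are limited by depth.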
